A study of Homo sapiens with 4 samples.

Results

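The genes described here encode the machinery that cuts microRNAs out of their transcripts and uses them to silence messenger RNAs. A list of 10 such genes was taken, DROSHA, DGCR8, XPO5, DICER1, TARBP2, AGO1, AGO2, AGO3, TNRC6A and TNRC6B, and 9 of the 10 had a named probe set among the 17687 named genes of the arrays. DGCR8, the RNA-binding partner of DROSHA, is named only. The rule for the list is gene names alone, though it was drawn up with earlier results of these data known. RNA came from the prostate cancer lines PC3, an androgen-independent line from a bone metastasis, and C42B, a castration-resistant descendant of the androgen-responsive line LNCaP. Each line had been stably transfected with a plasmid in which the CMV promoter drives the human miR-410 precursor together with a GFP reporter, or with the matching scrambled construct (miR-CON), and was kept under puromycin. The labels do not say whether a stable line was 1 clone or a pool. Each of the 4 combinations was measured on 1 Clariom S array, an array of short DNA probes with 1 summary value per transcript, so a construct difference within a line has no replicate and no error.

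Arrays are called by their titles throughout, because the labels disagree among themselves and the lineage genes go against the line names. On the arrays titled PC3, the genotype and description fields name the opposite construct from the title, whereas on the arrays titled C42B all fields name the same one. Of 11 measured markers of the LNCaP lineage, the mean of all 11 was higher under the PC3 title and 9 of the 11 passed the test between lines described below, and all 15 measured markers of PC3 cells were lower there and passed it. KLK3, the gene of prostate-specific antigen, stood at 11.04 (miR-CON) and 11.17 (miR-410) under the PC3 title and at 7.18 and 6.74 under the C42B title, in RMA values (log2). CAV1, the caveolin-1 gene, stood at 6.81, 5.32, 11.27 and 11.24, arrays being in that order here and wherever 4 values follow each other. The summed log2 values of the LNCaP-lineage list were 100.9, 105.0, 68.5 and 64.1 and those of the PC3 list 81.7, 80.7, 151.4 and 151.1, so that both lists part the arrays by line title in the direction opposite to the names. Line differences below are therefore differences between titles, and which of the lines was the higher cannot be told from the labels. RMA values are background-corrected, quantile-normalized log2 signals, whose medians over all genes lay between 6.54 and 6.58 on the 4 arrays. The signs of construct differences follow the titles (miR-410 minus miR-CON). The article speaks of PRKD1, a protein kinase gene, as lower with miR-410 on its arrays of PC3 cells. It also reports lower PRKD1 RNA by real-time PCR in both PC3 and C42B cells, and lower protein by Western blot. By the titles PRKD1 was at 10.15 and 10.23 in the pair titled PC3, and at 3.86 with miR-CON and 6.80 with miR-410 in the pair titled C42B. Its large difference thus runs opposite to the article's direction and lies in the pair titled C42B, not in that titled PC3. By title, neither pair shows the fall that the article gives for both lines. In the pair titled C42B the fold of PRKD1, 7.69, has the size that the article gives for PC3 cells, with its sign turned. Read by the article, that pair would be its PC3 pair with the construct turned, which the titles do not say. The direction of the construct is thus unsettled in both pairs. If it is turned in both, every construct difference below changes sign at the same size, and AGO1 and AGO3, higher with miR-410 by title in the pair titled C42B, become lower while AGO2 becomes higher.

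MicroRNAs are transcribed as long primary transcripts with a hairpin. In the nucleus the Microprocessor, made of the ribonuclease DROSHA and its partner DGCR8, cuts out the precursor hairpin, which exportin-5 (XPO5) carries to the cytoplasm, where the ribonuclease DICER1 with its partner TARBP2 removes the loop. One strand of the resulting duplex is loaded into an Argonaute protein (AGO1 to AGO4), which finds target messenger RNAs by pairing with the seed of the microRNA and recruits a TNRC6 protein (also called GW182), the scaffold for the enzymes that shorten poly(A) tails and remove caps. A microRNA made from a plasmid-borne precursor passes through the same steps.

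The cargo is shown first, since the stable construct carries its precursor. In RefSeq's GRCh38.p14 table the hairpin of miR-410 lies at chr14:101065912-101065991 on the plus strand and is 80 bases long. In the hairpin, the capitals mark the mature strands, 5p at bases 14 to 34 and 3p at bases 50 to 70, which the DROSHA and DICER1 steps set free. In each mature strand of 21 bases, the capitals mark the seed, bases 2 to 8, through which an Argonaute finds its targets.
hsa-mir-410: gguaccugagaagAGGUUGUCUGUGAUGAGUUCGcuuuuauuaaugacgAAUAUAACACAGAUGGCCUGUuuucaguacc
hsa-miR-410-3p: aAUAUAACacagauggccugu
hsa-miR-410-5p: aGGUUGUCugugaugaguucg
The seed of hsa-miR-410-3p, the strand that the study followed, was held by 1 of the 2370 mature names in that table, hsa-miR-410-3p itself. Neither the hairpin nor its mature strands were measured here, so the dose of the construct on each array is unknown.

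Between the lines, DICER1 and TNRC6A were higher on the arrays titled PC3, while XPO5 and AGO1 differed little. The question was whether the machinery stood at the same level in both lines, and the 2 arrays of one line title were compared with the 2 of the other by limma, with Benjamini-Hochberg adjustment over all 17687 genes and a threshold of 0.05. The spread within a line is then that between its 2 constructs, and p-values measure only that spread, since nothing says that the arrays of a line came from separate cultures with one treatment. Of the 9 measured genes 2 passed, both higher on the arrays titled PC3, beside 25.8% of all genes, 14.1% being higher under the PC3 title and 11.7% lower. The share among the machinery genes (22.2%) was thus close to that of all genes, dim genes included. Genes whose highest value lay below the overall median were then left out. On that footing 2 of 8 listed genes passed, beside 4337 of 10222 genes, which is a larger share than that of the listed genes. The median line difference was 0.35 for the 9 genes and 0.03 for all genes (log2), and 8 of the 9 genes had a positive difference, against 52.6% of all genes. The median absolute difference was 0.35 for the 9 genes and for all genes alike. With cyclic loess between the arrays, XPO5 and AGO1 turned negative, at -0.12 and -0.13, so the lean depends on the scaling. At an unadjusted p under 0.05, 3 of the 9 genes passed, beside 6692 of all 17687 genes. In bulk RNA, less transcript in every cell and fewer cells that carry it cannot be told apart.

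**Figure D1:**
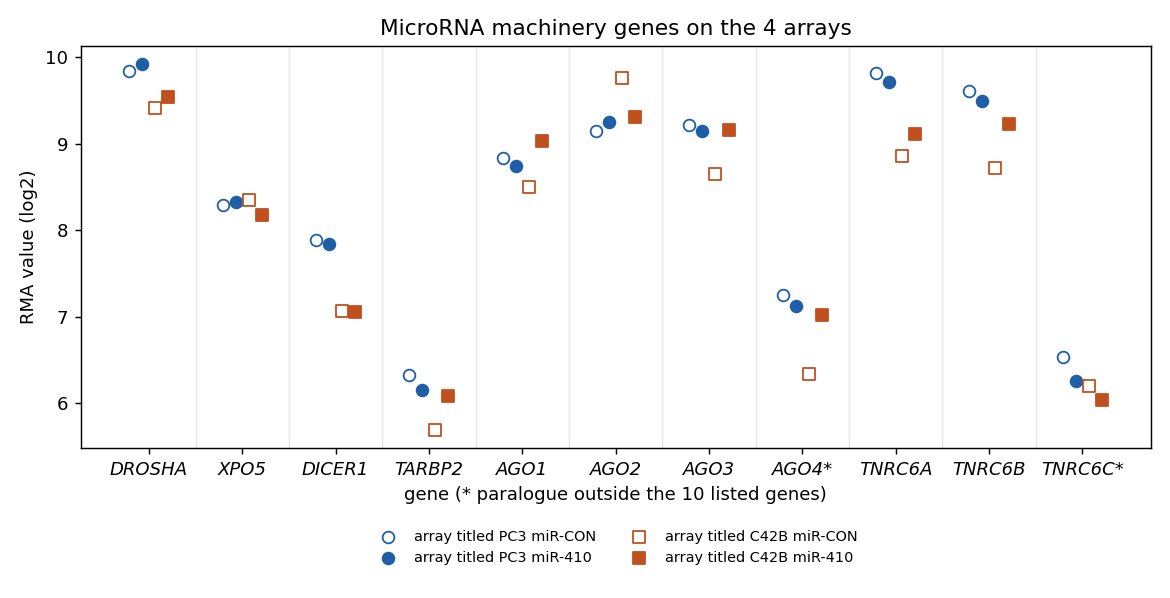
RMA value (log2, vertical axis) of each measured machinery gene and of the paralogues AGO4 and TNRC6C on the array titled PC3 miR-CON (open circles), PC3 miR-410 (filled circles), C42B miR-CON (open squares) and C42B miR-410 (filled squares), with 1 array per symbol. The circles of DICER1 and TNRC6A lie above their squares. For DROSHA, TARBP2, AGO1, AGO3, AGO4, TNRC6A and TNRC6B the open square is the lowest symbol. Heights are comparable within a gene, not between genes, whose probes differ.

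Among the processing genes, DICER1 separated the lines most clearly. DICER1, the ribonuclease that makes the mature duplex, stood at RMA values of 7.89 (miR-CON) and 7.84 (miR-410) under the PC3 title and of 7.06 and 7.05 under the C42B title. The 2 lines did not overlap, and within each line both constructs gave nearly the same value. The line difference was 0.81 (log2, SE 0.16, 95% interval 0.42 to 1.20), which is 1.75-fold, with an adjusted p of 0.0169 by limma. DROSHA, the nuclear ribonuclease, stood at 9.84, 9.92, 9.42 and 9.54. Its lines did not overlap either, but the log2 difference of 0.40 (interval -0.0048 to 0.81) did not pass (adjusted p = 0.136, limma). XPO5, the exporter of precursors, had values of 8.29, 8.32, 8.35 and 8.17. These overlapped between lines, with a difference of 0.04 and an interval of -0.37 to 0.46. TARBP2, the double-stranded RNA-binding partner of DICER1, had values of 6.33, 6.16, 5.69 and 6.09. Its lines did not overlap, and its difference of 0.35 had an interval of -0.15 to 0.86 (adjusted p = 0.271, limma). TARBP2 was the one listed gene that a filter on dim genes removed.

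Among the Argonaute genes no line difference passed the test. AGO2, the family member known for slicing its targets, stood at RMA values of 9.14 and 9.26 under the PC3 title and of 9.76 (miR-CON) and 9.31 (miR-410) under the C42B title. It was the one listed gene with a lower mean on the arrays titled PC3, by a log2 difference of -0.33 (interval -0.86 to 0.19, adjusted p = 0.316, limma), although both arrays titled C42B lay above both titled PC3. AGO1 stood at 8.83, 8.74, 8.50 and 9.03, so that the arrays titled PC3 lay between those titled C42B, and its line difference was 0.02 (interval -0.54 to 0.58). AGO3 had values of 9.21, 9.15, 8.66 and 9.16. Its lines overlapped at the array titled C42B miR-410, and the difference was 0.27 (interval -0.28 to 0.82). AGO4, the fourth family member and not on the list, had values of 7.25, 7.13, 6.34 and 7.02, with both arrays titled PC3 above both titled C42B and a difference of 0.51 (adjusted p = 0.217, limma).

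Of the TNRC6 scaffold genes, TNRC6A was higher on the arrays titled PC3, and TNRC6B did not pass the test. TNRC6A stood at RMA values of 9.81 and 9.71 under the PC3 title and of 8.85 (miR-CON) and 9.11 (miR-410) under the C42B title. The lines did not overlap, with a difference of 0.78 (log2, SE 0.18, interval 0.34 to 1.22), which is 1.72-fold (adjusted p = 0.0272, limma). TNRC6B had values of 9.61, 9.50, 8.72 and 9.23, again without overlap, and its difference of 0.58 (interval 0.03 to 1.13) did not pass after adjustment (adjusted p = 0.115, limma). TNRC6C, a paralogue outside the list, had values of 6.54, 6.26, 6.20 and 6.04 and a difference of 0.28 (adjusted p = 0.328, limma). In all, 6 of the 9 listed genes had non-overlapping lines, 5 of them higher on the arrays titled PC3, beside 64.5% of all genes without overlap, 35.2% with both arrays titled PC3 on top and 29.4% with both below.

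**Figure D2:**
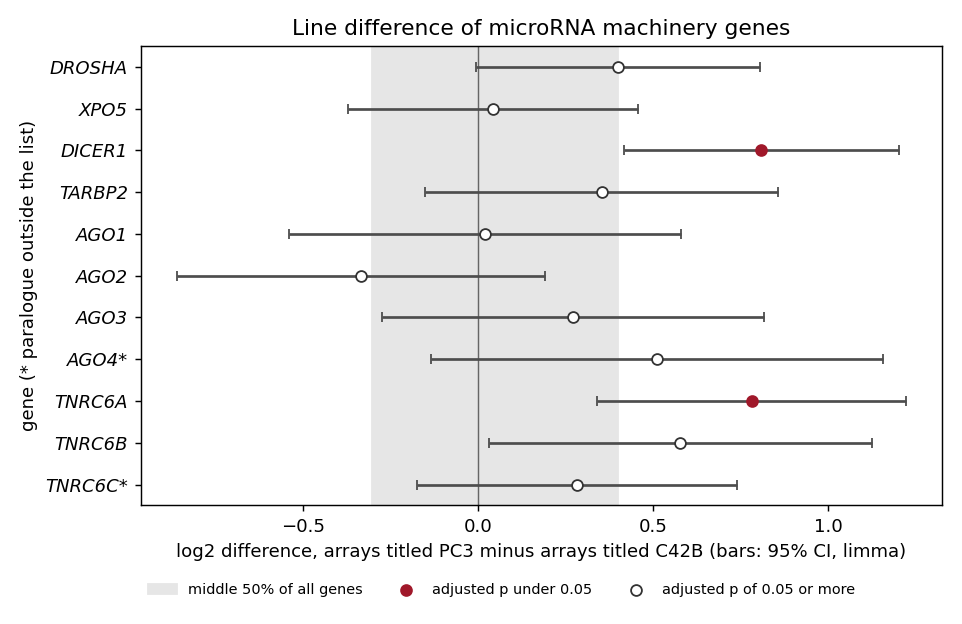
Line difference (log2, arrays titled PC3 minus arrays titled C42B, horizontal axis) of the 9 measured genes and 2 paralogues, with 95% intervals from limma. Filled points passed an adjusted p of 0.05, which DICER1 (0.81) and TNRC6A (0.78) did, and the grey band holds the middle 50% of all 17687 genes (-0.30 to 0.40).

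The calls for DICER1 and TNRC6A rest on having both arrays titled PC3. Without the array titled PC3 miR-CON or the one titled PC3 miR-410, the adjusted p of DICER1 was 0.121 or 0.108 and that of TNRC6A 0.162 or 0.124, while their differences stayed between 0.73 and 0.83. Without the array titled C42B miR-CON, TNRC6A had an adjusted p of 0.056, and without the one titled C42B miR-410, TNRC6B passed with 0.0280 (all limma).

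Within the pair titled PC3, these genes differed little between the constructs. The question was whether a cell line that carries the miR-410 construct holds its processing and silencing genes at another level than the control line. The differences by title ran from -0.17 for TARBP2 to 0.11 for AGO2 (log2), with a median of -0.06, and 0 of the 9 genes reached 1.5-fold, beside 6.55% of all genes. None reached a log2 difference of 0.32 either, a lower threshold tried as an alternative, beside 23.1% of all genes. The median absolute difference was 0.092 for the 9 genes and 0.164 for all genes, dim genes included. For the 81 measured genes of the wider pathway, described below, it was 0.110. A comparison with genes of like level was not made. If the genotype field is followed in place of the title, every sign in this pair turns and the sizes stay.

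Within the pair titled C42B, the differences were larger and the Argonaute genes parted. At 1.5-fold 0 of the 9 genes were past the threshold, beside 14.0% of all genes. At a log2 difference of 0.32, 4 were higher and 1 lower on the array titled miR-410, beside 38.3% of all genes in either direction (19.4% higher and 18.8% lower). AGO1 was higher by 0.53 (1.44-fold), AGO3 by 0.51 (1.42-fold), TNRC6B by 0.50 (1.42-fold) and TARBP2 by 0.39 (1.31-fold), whereas AGO2 was lower, at -0.46 (1.37-fold). TNRC6A differed by 0.26, XPO5 by -0.18, DROSHA by 0.12 and DICER1 by -0.01. DICER1, which was called between the lines, was at percentile 2.35 of absolute differences over all genes in this pair, and AGO1 at percentile 82.5. After removal of a loess trend that ties the size of the difference to a gene's level, the values were -0.58 for AGO2, 0.48 for TARBP2, 0.39 for AGO1, 0.37 for AGO3, 0.37 for TNRC6B, -0.31 for XPO5, 0.12 for TNRC6A, -0.06 for DICER1 and -0.0066 for DROSHA, so the order of the genes and the sign of DROSHA depend on that setting, and the opposite signs of AGO2 and of AGO1 and AGO3 do not. These are single readings, with no spread between cultures to hold them against.

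**Figure D3:**
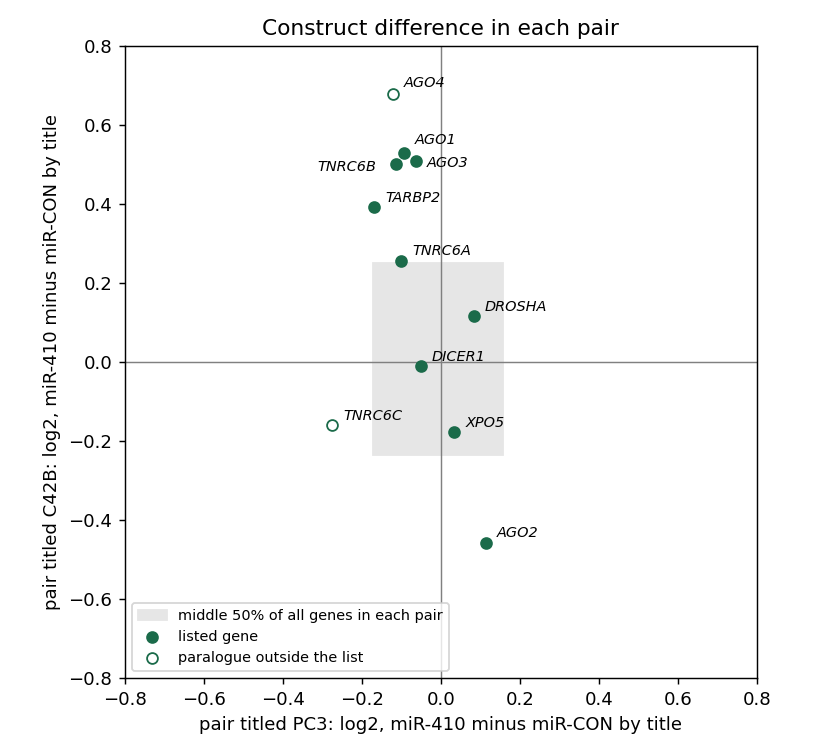
Construct difference by title (log2, miR-410 minus miR-CON) in the pair titled PC3 (horizontal axis) and in the pair titled C42B (vertical axis), 1 point per gene, with the middle 50% of all genes in each pair as a grey box. AGO1, AGO3, AGO4, TNRC6B and TARBP2 lie between 0.39 and 0.68 on the vertical axis and AGO2 at -0.46, while no listed gene lies beyond -0.17 or 0.11 on the horizontal axis.

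The paralogue AGO4 had the same sign as AGO1 and AGO3 in each pair. AGO4 was higher by 0.68 (1.60-fold) on the array titled C42B miR-410, and TNRC6C differed by -0.16 in that pair. Set against each other within the pair titled C42B, AGO2 differed by 1.03 less than the mean of AGO1, AGO3 and AGO4 (a log2 difference of -0.46 against one of 0.57), a contrast chosen after the values were seen. In the pair titled PC3 the same contrast was 0.21, from 0.11 for AGO2 and -0.09 for the other three. The construct differences of the 2 pairs had opposite signs by title for 7 of the 9 listed genes, beside 47.0% of all genes. In 8 of the 9 genes the difference was larger in the pair titled C42B, beside 61.5% of all genes.

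A construct difference shared by both pairs was not found for any of these genes. With the construct by title and the line as terms of 1 limma fit, which leaves 1 residual degree of freedom, 0 of the 9 genes and 0% of all genes passed after adjustment, and at an unadjusted p under 0.05 the counts were 0 of 9 and 4.52% of all genes. The estimates ran from -0.17 for AGO2 to 0.22 for AGO3, with adjusted p of 0.897 to 0.984. With 1 residual degree of freedom, a count of 0 does not show that the genes did not differ.

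AGO4, AGO1 and AGO3 follow one another on chromosome 1 in RefSeq's gene order, with no measured gene between them, and AGO2 lies on chromosome 8. The 10 measured neighbours on each side were therefore read in the pair titled C42B, after the values of the Argonaute genes had been seen. Of the 20 neighbours of the chromosome 1 group, 15 were higher on the array titled C42B miR-410, with a median of 0.24, and 9 were higher and 2 lower by 0.32 or more, beside a median of 0.01 over all genes. CLSPN, which encodes the replication checkpoint mediator claspin and lies next to AGO4, was the highest of them (1.00). Over all genes 50.9% were above 0, and 19.4% were higher and 18.8% lower by 0.32 or more. The neighbours were not read with the loess trend on gene level subtracted. Of the 20 neighbours of AGO2, 9 were higher and the median was -0.11, with 2 higher and 5 lower by 0.32 or more. TNRC6B on chromosome 22, at 0.50 itself, had neighbours that leaned the other way, with a median of -0.08, 8 of 20 above 0, and 2 higher and 6 lower by 0.32 or more. Between the lines (titled PC3 minus titled C42B), the neighbours' medians were 0.21 on chromosome 1, -0.30 on chromosome 8 and 0.51 on chromosome 22. Over all genes that median was 0.03. Whether position has a part in the line or construct differences of these genes was not tested. In the pair titled PC3 the medians of the chromosome 1 and chromosome 8 neighbours were 0.01 and -0.00037.

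**Figure D4:**
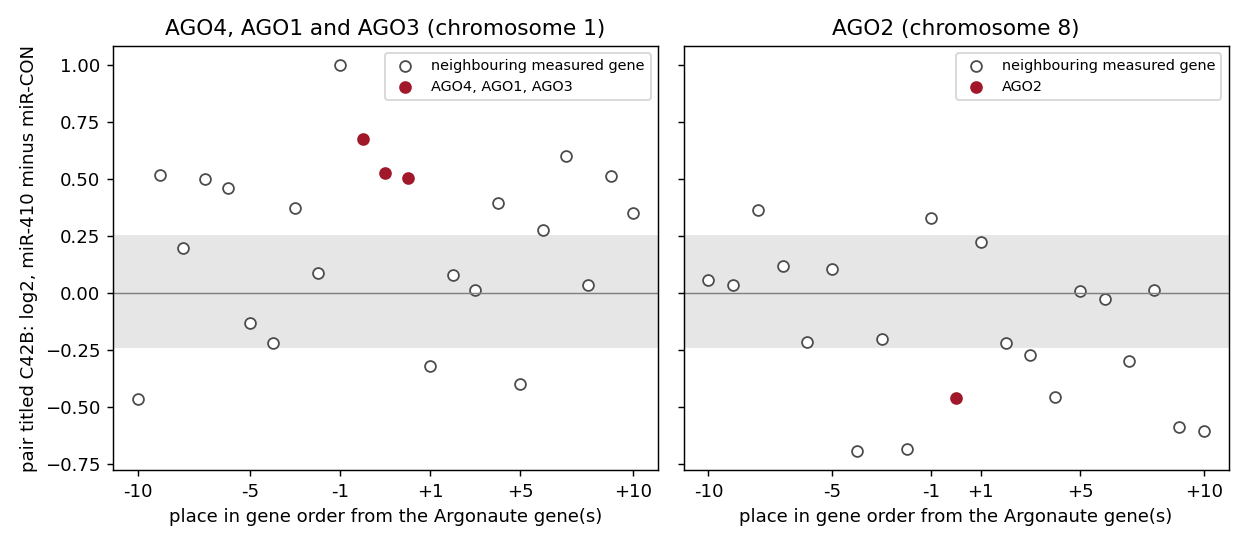
Construct difference in the pair titled C42B (log2, vertical axis) of the Argonaute genes (filled) and of the 10 measured genes on each side in gene order (open, horizontal axis), on chromosome 1 (left) and chromosome 8 (right), with the middle 50% of all genes in grey. On chromosome 1 most points lie above 0, as AGO4 (0.68), AGO1 (0.53) and AGO3 (0.51) do, and on chromosome 8 AGO2 lies at -0.46 among neighbours from -0.69 to 0.36.

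The wider pathway was read through 96 further genes in 7 lists, of which 81 were measured. By the same limma test between lines, 15 of the 81 were higher under the PC3 title and 3 were lower, 22.2% in all, again close to the 25.8% of all genes. That 25.8%, here and for each list below, includes dim genes. With those left out, 4337 of 10222 genes were called, and the lists were not counted on that footing. Within the pair titled C42B, 19 were higher by 0.32 or more (log2) on the array titled miR-410 and 4 lower by as much, 23.5% and 4.94%, beside the 19.4% and 18.8% of all genes given above. At 1.5-fold these counts were 6 (7.41%) and 0, beside 6.80% and 7.25% of all genes. A median of 0.18 over the 81 genes stood beside one of 0.01 over all genes, and 56 of the 81 (69.1%) were above 0, beside 50.9% of all genes. The loess trend on gene level was not subtracted for these 81 genes. Among the listed genes that setting lowered AGO1 from 0.53 to 0.39 and raised the dim TARBP2 from 0.39 to 0.48. How far the lean of the 81 genes follows their level was not tested. Within the pair titled PC3, 2 were higher and 3 lower by 0.32 or more, beside the 23.1% of all genes in either direction, and 0 reached 1.5-fold, beside 6.55%.

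Of the genes that work with the Microprocessor, 0 of 14 measured passed between the lines, beside 25.8% of all genes. Their median difference was 0.23. ERH, a small partner of DGCR8, stood at 10.15, 10.29, 10.62 and 11.14 (log2), with both arrays titled C42B on top and a line difference of -0.66 that did not pass (adjusted p = 0.0892, limma). SRRT, which links the cap-binding complex to primary transcripts, had a line difference of 0.52 and SRSF3, a splicing factor that marks primary transcripts for cutting, one of 0.50. In the pair titled C42B, ADAR, an enzyme that edits double-stranded RNA, differed most of this list, being higher by 0.60. ERH, named for its line difference, was higher there by 0.52, which was not the next largest value. In the pair titled PC3 the largest difference of this list was -0.25, for SRRT. Of 3 measured genes for export and for partners of DICER1, 0 passed, beside the same 25.8% of all genes. PRKRA, a partner of DICER1 like TARBP2, had a line difference of -0.52, the opposite sign to that of TARBP2, while NUP153, a nuclear pore protein gene, had one of 0.42 and RAN, the GTPase of exportin-5, one of -0.20. In the pairs NUP153 differed most of the 3, by -0.30 in the pair titled PC3 and 0.26 in the pair titled C42B.

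Of 15 measured genes for loading and escorting Argonaute proteins, 3 were higher on the arrays titled PC3 and 0 lower. That is 20%, beside 25.8% of all genes, and the median difference was 0.17. FKBP4, a co-chaperone of HSP90, was highest, with RMA values of 10.74 and 10.91 on the arrays titled PC3 and 9.42 and 9.47 on those titled C42B, a difference of 1.38 (adjusted p = 0.00363, limma). FXR2, an RNA-binding relative of the fragile X protein, followed with 1.16 and IPO8, an importin that binds Argonaute proteins, with 1.03. In the pairs, the helicase gene MOV10 differed by 0.38 in the pair titled PC3 and PTGES3, the co-chaperone p23, by 0.57 in the pair titled C42B.

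Of 13 measured genes of the deadenylation complexes, which TNRC6 proteins recruit, 4 were higher on the arrays titled PC3 and 0 lower. That is 30.8%, beside 25.8% of all genes, and the median difference was 0.08. CNOT7, a catalytic subunit of the CCR4-NOT deadenylase, had RMA values of 10.11 and 10.18 on the arrays titled PC3 and 8.13 and 8.32 on those titled C42B, a 3.78-fold difference (adjusted p = 0.00125, limma). TOB1, an adaptor of CCR4-NOT, differed by 1.01 and PABPC4, a poly(A)-binding protein gene, by 0.95, and both passed. In the pair titled C42B the CCR4-NOT subunit gene CNOT10 was higher by 0.68, and in the pair titled PC3 the deadenylase gene CNOT6L was higher by 0.42.

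Of 18 measured genes of decapping, decay and translational repression, 4 were higher under the PC3 title and 2 lower. That is 33.3%, beside 25.8% of all genes, and the median difference was 0.14. DCP1B, an activator of decapping, had a line difference of 1.56, from values of 7.91 and 8.06 on the arrays titled PC3 and 6.15 and 6.70 on those titled C42B. The 2 that were lower were AJUBA, a LIM-domain adaptor gene (-1.69), and PATL1, another decapping activator (-1.0). DCP1B differed most of this list in the pair titled C42B (0.56), and LSM14B, a P-body protein gene, in the pair titled PC3 (-0.33).

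Of 16 measured genes that tail, trim or destroy microRNAs and their precursors, 4 were higher under the PC3 title and 1 lower. That is 31.25%, beside 25.8% of all genes, and the median difference was -0.02. ERI1, a 3′ exonuclease, had RMA values of 7.97 and 8.15 on the arrays titled PC3 and 5.76 and 6.55 on those titled C42B, a difference of 1.90 (adjusted p = 0.00763, limma). PARN, a ribonuclease that trims poly(A) tails, was higher by 1.18, and ZSWIM8, the ubiquitin ligase receptor of target-directed microRNA decay, was lower, at -1.23. ZSWIM8 also differed most of this list in the pair titled PC3 (-0.41). In the pair titled C42B, TUT4, a uridylyl transferase that adds U tails to precursors, went from 5.89 with miR-CON to 6.89 with miR-410, a difference of 1.00. With miR-CON, TUT4 lay below the median over all genes on that array, 6.58. Its paralogue TUT7, named after its values were seen, went from 8.65 to 9.58 (0.93). On the arrays titled PC3 TUT4 had values of 6.38 and 6.63 and TUT7 of 9.23 and 9.12, so neither moved there by more than 0.25.

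**Figure D5:**
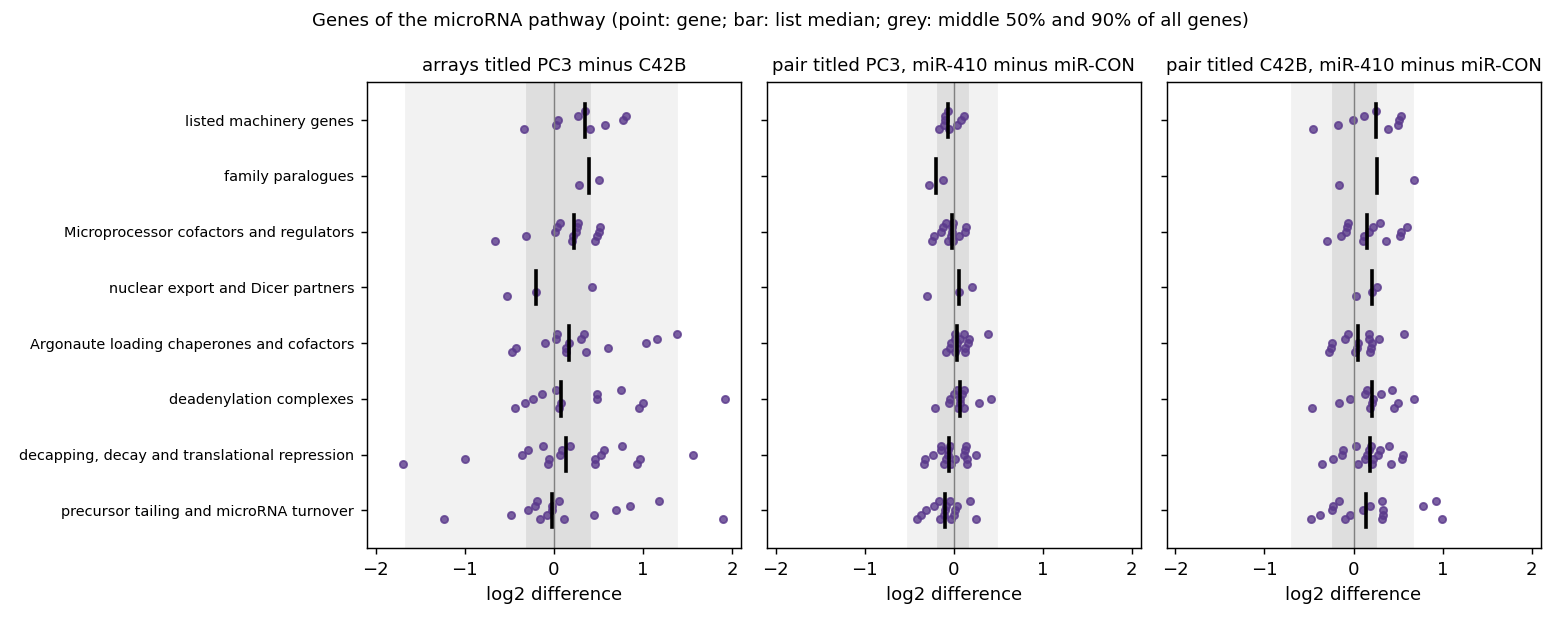
Log2 differences (horizontal axes) of the 9 listed genes and of the 7 further lists, between the arrays titled PC3 and C42B (left) and by construct within the pair titled PC3 (middle) and the pair titled C42B (right). Points are genes, black bars list medians, and grey bands the middle 50% and 90% of all genes. Points lie close to 0 in the middle panel, with none of them beyond -0.41 or 0.42, and reach 1.00 (TUT4) in the right one.

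The genes whose profile over the 4 arrays lay nearest to those of DICER1, TNRC6A and TNRC6B are given as a description only, since over 4 arrays many genes lie close to any such profile. Nearness was the Euclidean distance between log2 values centred on each gene's mean. LRRC63 (0.021), SLC25A36 (0.035) and RAMAC (0.044) were nearest to DICER1, with 371 genes within 0.2. DENND1A (0.043), UBE2N (0.045) and PTPN3 (0.047) were nearest to TNRC6A, with 355 genes within 0.2, and TTF1 (0.038), ZNF384 (0.042) and TANGO2 (0.048) to TNRC6B, with 262.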

How the data were processed

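Total RNA of the 4 stable lines was hybridized to Clariom S arrays. The authors normalized the scans by RMA in Partek, as the submitters' notes on processing also have it, and deposited log2 signals for each probe set. RMA makes the distributions of the arrays alike, so a shift of all genes on an array is lost. The precision is limited by the number of arrays. By the platform's annotation, 17709 of 21448 probe sets carried 1 gene symbol, 0 carried several and 3739 are unnamed here, which left 17687 genes, all present in RefSeq's gene table. For 20 genes, 0 of them on the list, several probe sets were averaged. Lines were compared with limma 3.58.1 in R 4.3.3, with 2 residual degrees of freedom, since an exact permutation of 2 arrays against 2 cannot go below a p of 0.333. The article's methods name an ANOVA whose design they do not give. The limma code was tested on simulated data in which 200 genes were shifted. Between lines it called 0 of the 200 at a log2 shift of 1 and 117 at a shift of 2. The fit for a construct difference shared by both pairs called 0 of the 200 even at a shift of 2. Far fewer genes were shifted there than were called between lines here, which makes the adjustment stricter in the simulation. Construct differences within a pair were counted at 1.5-fold with no test. Alternatives were other thresholds, scalings, filters, a variance trend, the genotype field, and leaving out each array. The members and lists were chosen with earlier results of these data known. Named are all listed genes and KLK3, FOLH1, ANXA1, CAV1 and PRKD1 (FOLH1 and ANXA1 without values in the text), from each further list the 3 genes with the largest line difference and the 1 with the largest construct difference in each pair, and, for the 3 listed genes with the largest line difference, the 3 nearest in profile. Tables and figures were made with Python 3.11.15, NumPy 2.4.6, pandas 2.3.3, statsmodels 0.14.6 and Matplotlib 3.10.9. MicroRNA sequences are RefSeq's for GRCh38.p14.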

Additional observations from a re-analysis of the deposited data

Results flagged for a closer look

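For 7 listed genes the construct difference by title had opposite signs in the 2 pairs. This difference was not tested, since each pair holds 1 array per construct. The difference in the pair titled C42B minus that in the pair titled PC3 was 0.62 for AGO1, 0.61 for TNRC6B, 0.57 for AGO3, 0.56 for TARBP2, 0.36 for TNRC6A, -0.21 for XPO5 and -0.57 for AGO2 (log2). Over all genes, 47.0% had opposite signs. With the genotype field in place of the title for the pair titled PC3, its signs turn, and these 7 genes then have the same sign in both pairs. With the construct turned in both pairs, they keep opposite signs, each the reverse of that given here.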

How the results depend on the processing

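The count of 2 listed genes called between lines, DICER1 and TNRC6A, was 2 with the construct as a second term, a variance trend, dim genes left out, array medians subtracted, cyclic loess, the highest probe set or probe sets in place of genes, and these were the same genes. Leaving out 1 array gave 0 to 3 genes. Without the array titled PC3 miR-CON or PC3 miR-410 it was 0 genes, without C42B miR-CON 1 and without C42B miR-410 3, and the lone array of a line was then assumed to vary like the other line's pair. At an adjusted p under 0.01 it was 0. Over all genes 4566 were called, 2062 at an adjusted p under 0.01 and 2426 or 2260 without the array titled PC3 miR-CON or PC3 miR-410. Near 0, XPO5 and AGO1 turned sign with cyclic loess (-0.12 and -0.13), and leaving out 1 array gave -0.046 (without C42B miR-410) to 0.13 for XPO5 and -0.24 to 0.29 for AGO1. AGO1 was at -0.025 without the array titled PC3 miR-CON and at -0.24 without C42B miR-CON. Without C42B miR-CON and without C42B miR-410, in that order, the line difference was 0.02 and 0.53 for AGO3, -0.11 and -0.56 for AGO2, 0.16 and 0.55 for TARBP2, and 0.33 and 0.83 for TNRC6B. In the pair titled C42B, subtracting the loess trend moved TNRC6A from 0.26 to 0.12, XPO5 from -0.18 to -0.31, DICER1 from -0.01 to -0.06 and DROSHA from 0.12 to -0.0066. The counts at 1.5-fold stayed at 0 in both pairs under the other settings, apart from 5 genes at a log2 difference of 0.32 in the pair titled C42B. Under alternatives added after the values were seen, 5 genes passed that lower threshold, or 4 of 8 with dim genes left out, which drops TARBP2. The labels give no replicate numbers that could serve as a block. The fits that hold line and construct together are those given here, with 2 listed genes called between lines and 0 between constructs. Detection above background was not analysed here.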
